A study of Mus musculus with 28 samples.

Results

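The 6 mouse genes described here are Il6ra and Il6st, which encode the chains of the interleukin 6 receptor, together with Cish, Socs1, Socs2 and Socs3, which encode brakes on cytokine receptors. They were chosen by symbol, as every probe set whose array annotation gives one of these 6 symbols and no other, which yielded 12 of 20380 probe sets and 6 of 12393 genes. The choice was made with earlier results of these same arrays known, so the levels and differences of the 6 genes are a description and carry no p-value. Each gene is given by its brightest probe set on average, and the other probe sets are described after that. All 6 genes had a value on every array, and no filter on low values was used. No detection calls were used, so that a low value gives no proof of expression.

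Interleukin 6 binds the chain encoded by Il6ra, and that pair joins gp130, the signalling chain encoded by Il6st and shared with several related cytokines. Janus kinases bound to gp130 then activate STAT3, a transcription factor. STAT factors switch on SOCS genes, whose proteins turn the same receptors down. Socs3 binds gp130 itself, Socs1 blocks Janus kinases directly, and Cish and Socs2 are well-known STAT5 targets downstream of cytokines such as interleukin 2. Naive T cells carry the interleukin 6 receptor and lose much of it after they meet antigen.

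Messenger RNA was measured on 28 Affymetrix Mouse 430A2 arrays, each of 1 preparation of sorted T cells from C57BL/6N mice, and the values are log2 signals. CD8 cells carried the OT1 receptor transgene and CD4 cells the AND transgene, so that cell type cannot be told apart from receptor, antigen and host. On day 2 the stimulated groups (3 arrays per cell type) came from culture on plates coated with anti-CD3 and anti-CD28 antibodies at 10 µg/ml, and the unstimulated groups (3 each) from plates without antibody. Interleukin 7 at 5 ng/ml was present in all cultures, controls included. Day 5 cells had spent the last 3 days in host mice. The continuous groups (3 each) had been stimulated and then moved to hosts that express the antigen. Transient groups (3 CD8 and 2 CD4 arrays) had been stimulated and moved to antigen-free hosts, and unstimulated groups (3 CD8 and 2 CD4 arrays) had seen neither antibody nor antigen. The submitters call the replicates independent biological ones, and the number of animals behind each array was not given in the sources used here.

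On day 5 Cd8a, the coreceptor of cytotoxic cells, lay between 11.70 and 12.99 on the CD8 arrays and between 5.34 and 6.22 on the CD4 arrays, as the labels have it. On day 2 the third unstimulated array of each cell type stood apart. Cd8a was at 5.78 on the one labelled CD8 and at 9.88 on the one labelled CD4, each against its label, and the median signal was 4.97 and 4.83 there, beside 6.29 to 6.53 on the other 26 arrays. Both were kept in their groups, and calls on day 2 that change without them are named beside the results. In the fit without them, 34.8% of all probe sets were called in CD8 and 62.3% in CD4 cells, so that a call gained there is read against those shares. The 3′ minus 5′ difference of the beta-actin control, a sign of shortened RNA, was 1.38 to 1.69 in stimulated and 2.28 to 4.27 in unstimulated CD8 cells of day 2, and 1.11 to 1.39 in stimulated and 3.37 to 4.30 in unstimulated CD4 cells. Its part in the day 2 differences was not tested. In bulk RNA, fewer cells that express a gene and less of its RNA per cell cannot be told apart.

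Il6ra was lower after stimulation at day 2 and lower in continuous than in unstimulated cells at day 5, in both cell types. On day 2 its log2 signal was 6.45, 6.49 and 6.63 in stimulated CD8 cells, against 10.56, 10.41 and 8.22 in unstimulated CD8 cells. The 3 stimulated arrays lay close together and below every unstimulated one, of which the third array was the lowest. The difference was -3.20 (SE 0.63), or 9.22-fold, and without the third unstimulated arrays it was -3.96 (SE 0.20). The call was lost where the fit held the 2 CD8 groups alone. In CD4 cells Il6ra was at 8.16, 8.18 and 7.66 after stimulation and at 10.09, 10.41 and 8.53 without it. These groups did not overlap either, and the difference was -1.68 (SE 0.63), which was not called, and -2.25 (SE 0.20), called, without the third arrays. A probe set counts as called where the limma adjusted p over all 20380 probe sets was below 0.05.

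On day 5 Il6ra was lowest in the cells kept in antigen-expressing hosts, in both cell types. It was at 6.35, 6.82 and 7.89 in continuous CD8 cells, 10.75, 9.90 and 10.32 in transient ones and 11.05, 11.07 and 10.70 in unstimulated ones. All continuous arrays lay below every other CD8 array, while transient and unstimulated arrays overlapped. Continuous cells were lower than transient cells by 9.87-fold (-3.30, SE 0.33) and lower than unstimulated cells by 15.2-fold (-3.93, SE 0.33). In CD4 cells Il6ra stood at 9.95, 9.82 and 9.24 in the continuous group, at 10.66 and 10.49 in the transient group and at 12.00 and 11.51 in the unstimulated group. The 3 CD4 groups kept this order with no overlap. Continuous CD4 cells were lower than unstimulated ones by 4.24-fold (-2.09, SE 0.37), and than transient ones by 1.87-fold (-0.90, SE 0.37), of which only the first was called.

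Il6st, the gp130 gene, followed Il6ra in part. On day 2 it was at 7.52, 7.46 and 7.68 in stimulated CD8 cells and at 10.43, 10.29 and 8.09 in unstimulated CD8 cells, groups that did not overlap. The difference was -2.05 (SE 0.59), not called, and -2.81 (SE 0.35), called, without the third unstimulated arrays. Stimulated CD4 cells had 8.57, 8.10 and 8.85, and unstimulated CD4 cells 8.14, 9.40 and 8.11. Here the groups overlapped, with a difference of -0.04 (SE 0.59), and of -0.26 (SE 0.35) without the third arrays.

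On day 5 Il6st was at 9.34, 10.03 and 11.26 in continuous CD8 cells, at 11.93, 11.95 and 12.33 in transient ones and at 11.14, 11.39 and 11.05 in unstimulated ones. The transient CD8 group was the highest of the 3, above every array of both others. Continuous cells were 1.86 below transient cells (difference -1.86, SE 0.36) and 0.98 below unstimulated ones (difference -0.98, SE 0.36), where the third continuous array reached into the unstimulated range. That second difference was -0.55 without the first continuous array and -1.50 without the third. Its call was lost without any of the other 5 arrays. In CD4 cells Il6st was at 10.49, 11.41 and 10.87 in continuous, 11.57 and 11.10 in transient and 12.73 and 12.59 in unstimulated cells. Both groups that had been stimulated thus lay below the unstimulated one, by -1.74 (SE 0.41) in continuous and -1.33 (SE 0.45) in transient cells, and they overlapped each other. The continuous CD4 call was lost without the first unstimulated array (-1.67).

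The lower CD4 levels of both chains in transient cells rested on 2 arrays a group. The calls of Il6ra (-1.18, SE 0.40) and Il6st (-1.33, SE 0.45) were lost when any 1 of these 4 arrays was left out. Beside them, the 7 measured B cell markers had a mean level of 7.57 to 9.35 in CD4 transient cells and 5.06 to 5.86 in CD4 unstimulated cells, with 5 of 7 called higher. Cd4 was at 7.68 and 7.88 in the transient group, against 9.22 and 9.60 in the unstimulated group, and the beta-actin difference was 2.42 to 2.73 against 0.669 to 0.984. What part these had in the CD4 transient values was not tested. The mean level of 8 myeloid markers was 6.67 to 8.62 in transient, 5.64 to 7.45 in unstimulated and 5.13 to 7.64 in continuous CD4 cells. In CD8 cells of day 5 it was 5.12 to 7.12, 4.94 to 9.08 and 5.33 to 6.62 in the same order. None of these markers was called within a cell type, and their part was not tested.

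**Figure D1:**
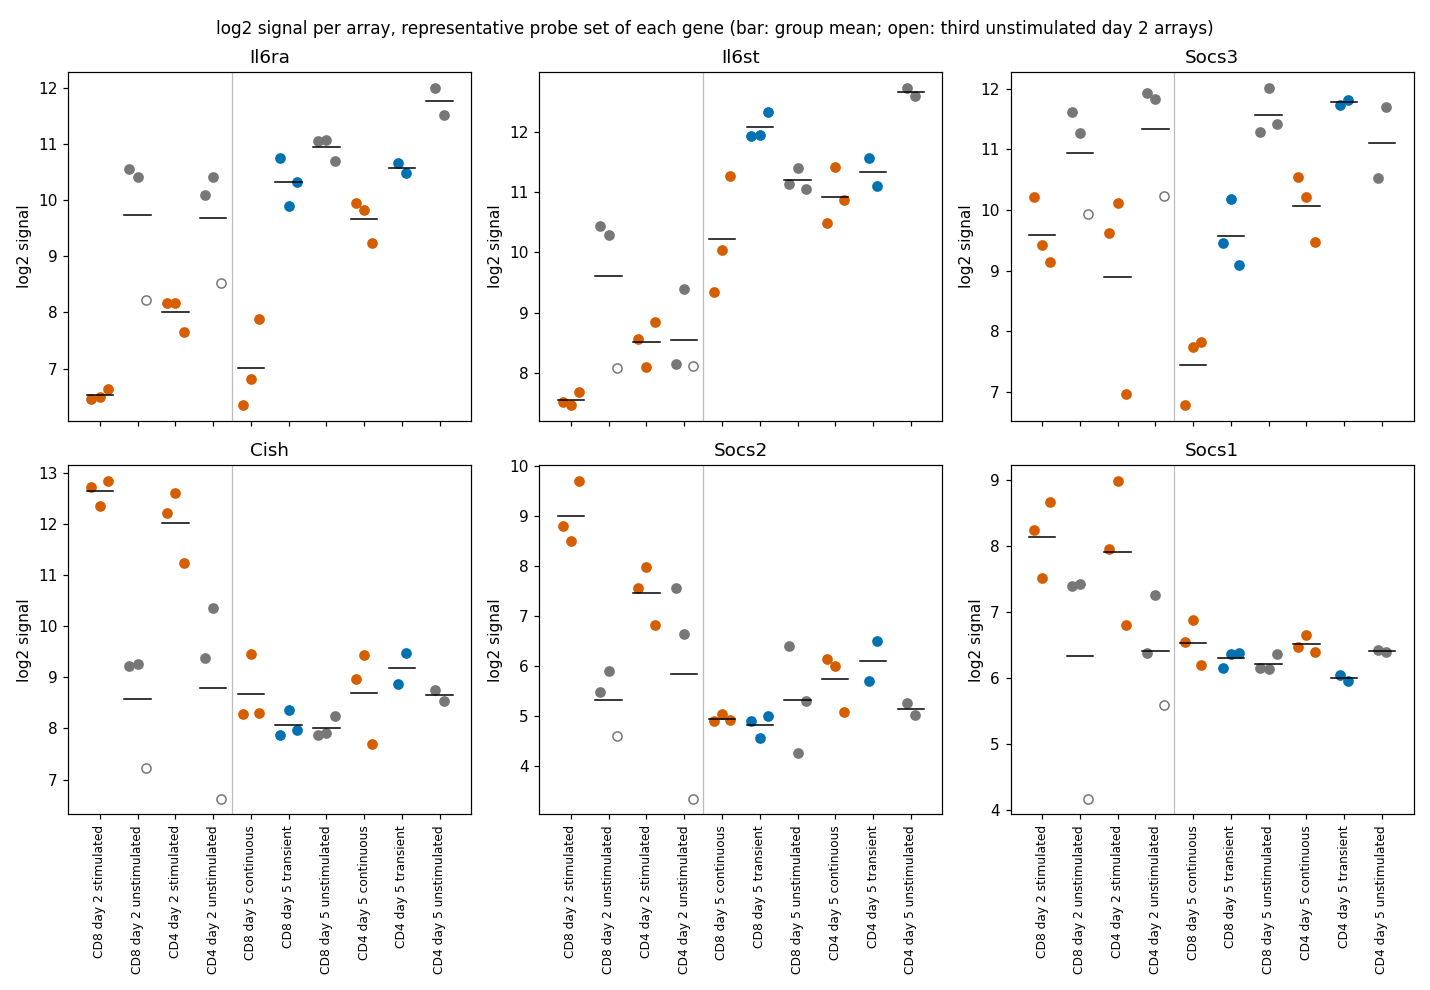
Log2 signal (y axis) of the 6 genes on every array, by group along the x axis, with day 2 left and day 5 right of the grey line. Orange points are stimulated or continuous arrays, blue transient, grey unstimulated, open points the third unstimulated arrays of day 2, and bars group means. Il6ra and Socs3 are lowest or next to lowest in continuous CD8 cells at 7.02 and 7.45 on average, and Cish is highest in the 2 stimulated groups of day 2.

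Cish and Socs2 were high on day 2 in stimulated cells and low in all day 5 groups. Cish, which binds activated cytokine receptors at the sites that recruit STAT5, had 12.73, 12.35 and 12.84 in stimulated CD8 cells and 9.21, 9.26 and 7.23 in unstimulated CD8 cells. In CD4 cells it had 12.22, 12.61 and 11.24 after stimulation and 9.38, 10.35 and 6.63 without it. No stimulated array overlapped an unstimulated one. The difference was 4.07 (SE 0.82), or 16.8-fold, in CD8 cells and 3.24 (SE 0.82), or 9.42-fold, in CD4 cells. The third unstimulated arrays were the lowest of their groups, and without them the differences were 3.40 and 2.16 (SE 0.41 each), both still called. The CD4 call was lost without the first or the second stimulated CD4 array.

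On day 5 Cish lay near its unstimulated day 2 level in all 6 groups. It was at 8.28, 9.46 and 8.31 in continuous CD8 cells, at 7.86, 8.35 and 7.96 in transient and at 7.87, 7.90 and 8.25 in unstimulated CD8 cells. CD4 cells had 8.97, 9.44 and 7.69 in the continuous, 8.87 and 9.48 in the transient and 8.75 and 8.55 in the unstimulated group. The 6 day 5 differences within a cell type ran from -0.47 (SE 0.44) to 0.67 (SE 0.39), and none was called.

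The start of Cish holds the letters of a STAT-type motif. The start is shown because, with all arrays, only Cish had its brightest probe set called in both cell types on day 2. Another Socs2 probe set was called in both as well, and so was Il6ra without the third unstimulated arrays. The motif searched was TTCNNNGAA, which reads the same on both strands, in windows of 250 bases before to 50 bases after each start from RefSeq (GRCm38.p6). Of the 6 genes, 5 were matched in that table, and 2 of these 5 windows held the motif. It was found in 8.3% of all 32851 windows, and 2 or more times in 0.457%. The Cish window held it 2 times, without overlap, from base 1 of the transcript and again from base 12, and the Socs3 window held it 1 time, from base -154 relative to the start. Cish is printed from chr9:107296409-107296678 (plus strand) and the Socs3 match with 10 bases on each side from chr11:117969502-117969530 (minus strand), a stretch that lies inside the annotated gene. Capitals mark the motif.
Cish: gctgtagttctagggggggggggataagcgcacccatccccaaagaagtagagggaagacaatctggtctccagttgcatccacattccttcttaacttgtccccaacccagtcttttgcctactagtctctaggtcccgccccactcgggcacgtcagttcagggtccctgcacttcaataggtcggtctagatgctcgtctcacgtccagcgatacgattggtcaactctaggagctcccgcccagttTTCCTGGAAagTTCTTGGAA
Socs3: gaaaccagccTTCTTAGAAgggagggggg
A match of these letters describes the sequence and shows no binding. No match was in the windows of Il6ra, Il6st and Socs1, which concerns only these letters in these windows.

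Socs2, best known for restraining growth hormone signals, had 8.79, 8.50 and 9.69 in stimulated CD8 cells and 5.48, 5.90 and 4.60 in unstimulated CD8 cells on day 2. Stimulated CD4 cells had 7.56, 7.97 and 6.82, and unstimulated CD4 cells 7.56, 6.63 and 3.36. The CD8 groups did not overlap and the CD4 groups did. The CD8 difference was 3.67 (SE 0.85), or 12.7-fold, and 3.30 (SE 0.45) without the third arrays. The CD4 difference was 1.60 (SE 0.85) on this probe set, not called, and 0.35 (SE 0.45) without the third arrays. Leaving out any 1 stimulated CD8 array ended the CD8 call. On day 5 Socs2 lay between 4.27 and 6.50 on all 16 arrays, with no call in any of the 6 comparisons within a cell type. Between transient and unstimulated CD8 cells a call appeared without the second unstimulated array (-1.03).

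Socs3, the brake that acts on gp130, averaged lower in stimulated cells on day 2, unlike Cish and Socs2, and was lowest in continuous CD8 cells. On day 2 it was at 10.21, 9.42 and 9.15 in stimulated CD8 cells and 11.61, 11.27 and 9.94 in unstimulated CD8 cells, which overlapped. Stimulated CD4 cells had 9.62, 10.11 and 6.97 and unstimulated CD4 cells 11.93, 11.83 and 10.23, with no overlap. The differences were -1.35 (SE 0.77) in CD8 and -2.44 (SE 0.77) in CD4 cells, neither called. Without the third unstimulated arrays they were -1.85 and -2.99 (SE 0.78 each), and the CD4 one was called.

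On day 5 Socs3 was at 6.78, 7.74 and 7.82 in continuous CD8 cells, at 9.46, 10.17 and 9.10 in transient ones and at 11.28, 12.02 and 11.41 in unstimulated ones. The 3 CD8 groups formed separate steps, continuous lowest and unstimulated highest. Continuous cells were 4.37-fold below transient cells (-2.13, SE 0.38) and 17.4-fold below unstimulated cells (-4.12, SE 0.38), and transient cells were 3.98-fold below unstimulated ones (-1.99, SE 0.38). All 3 differences were called. The beta-actin 3′ minus 5′ difference formed steps too, at 0.312 to 0.557 in continuous, 0.656 to 1.02 in transient and 1.92 to 2.44 in unstimulated CD8 cells, and its part was not tested. In CD4 cells Socs3 was at 10.54, 10.21 and 9.47 in continuous, 11.74 and 11.81 in transient and 10.53 and 11.69 in unstimulated cells. The continuous arrays lay below both transient arrays (-1.71, SE 0.43), a call lost when the Socs3 probe sets were averaged (-1.12), and the difference to unstimulated cells was -1.04 (SE 0.43), with overlap and no call, though the average of the probe sets was called there (-1.29).

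Socs1, which blocks Janus kinases downstream of interferon gamma and interleukin 2, had 8.24, 7.50 and 8.67 in stimulated CD8 cells and 7.38, 7.42 and 4.17 in unstimulated CD8 cells on day 2. Stimulated CD4 cells had 7.96, 8.98 and 6.79, and unstimulated CD4 cells 6.37, 7.25 and 5.59. The CD8 groups were just apart and the CD4 groups overlapped. The differences of 1.81 and 1.50 (SE 0.83 each) were not called, and they were 0.74 and 1.09 (SE 0.58 each) without the third arrays. On day 5 all 16 values lay between 5.95 and 6.87. The 1 call was in CD4 cells, where continuous cells were above transient ones by 0.51 (SE 0.17), and it was lost with a replicate block and without any 1 of the 5 arrays other than the third continuous one. In CD8 cells calls appeared without the third continuous array, at 0.50 against unstimulated and 0.41 against transient cells.

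Counted over the 12 probe sets, the calls read as follows, with the share of all 20380 probe sets beside them. On day 2, 4 probe sets were called in CD8 cells, 3 higher and 1 lower, where 7.94% of all were called. In CD4 cells 2 were called, both higher, where 10.9% of all were called. Nearly all calls of the whole table on day 2 were rises, with 7.21% higher and 0.736% lower in CD8 cells and 10.2% higher and 0.658% lower in CD4 cells. That split moved with the scaling: the share of calls that were higher was 90.7% in CD8 and 93.9% in CD4 cells as deposited, 52.7% and 51.4% after quantile normalization, 60.5% and 56.5% after median centring, and 45.2% and 39.4% without the third unstimulated arrays. The median difference over the whole table was 0.14 in CD8 and 0.13 in CD4 cells as deposited, -0.13 in both after quantile normalization, and -0.25 and -0.24 after median centring. On day 5, 5 of 12 were called between continuous and transient CD8 cells, all lower, beside 26.5% of the whole table (14.0% higher and 12.5% lower). Between continuous and unstimulated CD8 cells 7 were called, all lower, beside 46.0% (22.0% higher and 24.0% lower). Between transient and unstimulated CD8 cells 1 was called, lower, beside 30.3% (16.0% higher and 14.2% lower). In CD4 cells 1 was higher and 1 lower between continuous and transient, beside 33.4% (18.2% higher and 15.2% lower). Between continuous and unstimulated CD4 cells 5 were lower, beside 20.1% (9.71% higher and 10.4% lower), and between transient and unstimulated CD4 cells 2 were lower, beside 22.8% (9.12% higher and 13.7% lower). Since the genes were chosen with these results known, nothing is read from the counts. In 1 fit of all 28 arrays, whose common spread includes day 2, the day 5 calls left for the 6 genes were all in continuous CD8 cells. They were Il6ra against transient and unstimulated cells, Il6st against transient cells and Socs3 against unstimulated cells.

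The same holds for groups that do not overlap. Of the 12 probe sets, 7 did not overlap between stimulated and unstimulated CD8 cells, as did 39.0% of all probe sets, and 5 in CD4 cells, as did 31.8%. On day 5 the numbers were 6 between continuous and transient CD8 cells (40.9% of all), 7 between continuous and unstimulated CD8 cells (54.3%) and 3 between transient and unstimulated CD8 cells (41.8%). In CD4 cells they were 5 (56.3%), 7 (49.4%) and 10 (61.6%) in the same comparisons. The median difference of the 12 probe sets was -0.74 between continuous and unstimulated CD8 cells and -0.70 in CD4 cells, beside -0.10 and -0.02 for all probe sets.

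**Figure D2:**
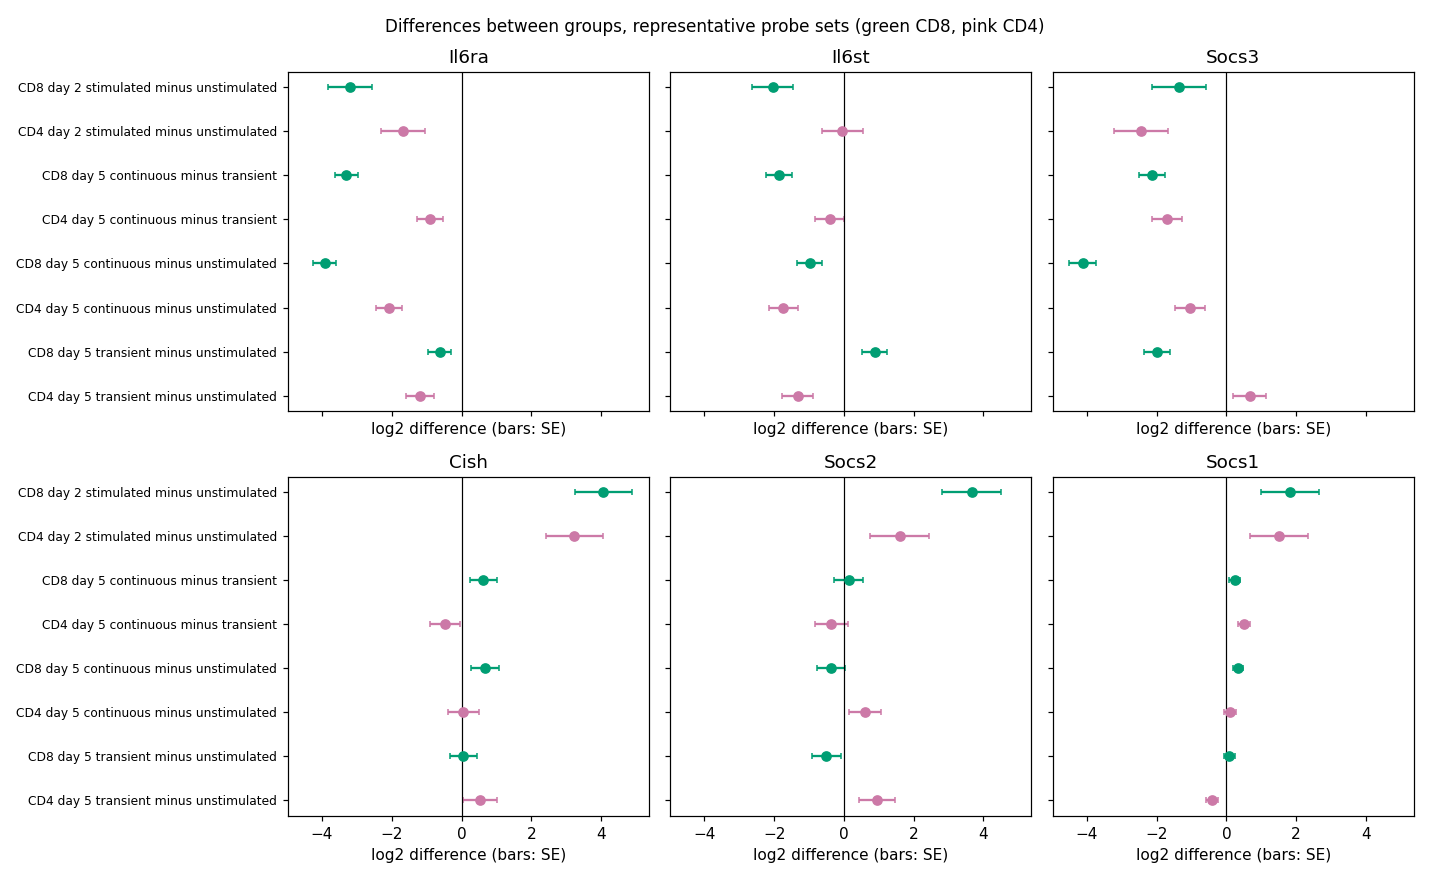
Log2 differences (x axis, bars SE) of the 6 genes in the 8 comparisons within a cell type (y axis), CD8 in green and CD4 in pink. Points left of 0 are lower in the first-named group. Il6ra is left of 0 in all 8, Cish reaches 4.07 and 3.24 on day 2, and Socs3 reaches -4.12 between continuous and unstimulated CD8 cells.

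Set side by side, CD8 and CD4 cells differed most in Il6ra and Socs3 on day 5. Continuous CD8 cells had less Il6ra than continuous CD4 cells, at 7.02 ± 0.79 and 9.67 ± 0.38 (SD, n = 3 each; difference -2.65, SE 0.33), and less Socs3, at 7.45 ± 0.58 and 10.07 ± 0.55 (-2.62, SE 0.38). No array of the one group overlapped the other in either gene. In transient cells Socs3 was also lower in CD8, at 9.58 ± 0.55 (SD, n = 3), than in CD4, at 11.78 ± 0.05 (SD, n = 2; difference -2.20, SE 0.43), while in unstimulated cells the groups overlapped (0.46, SE 0.43). The other Socs3 probe sets averaged 8.30 and 7.45 in transient CD8 cells and 9.46 and 7.94 in transient CD4 cells, not called. Unstimulated CD8 cells had less Il6st than unstimulated CD4 cells, at 11.19 ± 0.18 (SD, n = 3) and 12.66 ± 0.10 (SD, n = 2; difference -1.47, SE 0.41). These 4 differences, on the brightest probe sets, were the ones called among the 5 states. Of all probe sets, 10.3%, 26.4% and 27.7% were called in continuous, transient and unstimulated cells. The other Il6st probe sets averaged 6.18 and 5.91 in unstimulated CD8 cells and 6.32 and 6.34 in unstimulated CD4 cells, not called. The beta-actin difference was 0.656 to 1.02 in transient CD8 and 2.42 to 2.73 in transient CD4 cells. In unstimulated cells it was 1.92 to 2.44 and 0.669 to 0.984. Its part, and that of the B cell markers in transient CD4 cells, was not tested. On day 2 none of the 6 genes was called between the cell types, at 0.00981% of all probe sets in stimulated and 0 in unstimulated cells. Without the third unstimulated arrays, Il6ra was called lower in stimulated CD8 than in stimulated CD4 cells (-1.47, SE 0.18), at 0.54% of all probe sets, and Il6st higher in unstimulated CD8 than in unstimulated CD4 cells (1.59, SE 0.38), at 13.1%. Their other probe sets were not called there, at -0.24 for Il6ra and at -0.28 and 0.15 for Il6st.

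The contrasts between states on day 5 also differed between the cell types. Those with transient cells involve the CD4 transient group, whose B cell markers and beta-actin difference were given above. Their part was not tested. Il6ra lay further below its transient level in continuous CD8 than in continuous CD4 cells (CD8 minus CD4 -2.40, SE 0.49), and likewise further below its unstimulated level (-1.84, SE 0.49), a call lost without the second unstimulated CD4 array (-1.60). This was seen on the brightest Il6ra probe set only. The second one averaged 6.02 in continuous, 6.29 in transient and 6.57 in unstimulated CD8 cells. In CD4 cells its means were 6.26, 6.48 and 6.82 in the same order. For Socs3 the same contrast against unstimulated cells was -3.08 (SE 0.57). Between transient and unstimulated cells it was -2.66 (SE 0.60), but -0.93 with no call when the Socs3 probe sets were averaged. In CD4 cells the 3 Socs3 probe sets read 0.67, -0.02 and -1.16 in that contrast, none called. Il6st went the other way in transient against unstimulated cells, above in CD8 (0.88, SE 0.36, not called) and below in CD4 cells (-1.33, SE 0.45), a difference of 2.21 (SE 0.58). The rise in CD8 cells was seen on the brightest probe set only. There 1460295_s_at averaged 5.86 in transient and 5.91 in unstimulated CD8 cells, and 1421239_at 6.26 and 6.18, with overlap. In CD4 cells both were lower in transient cells, at 5.43 against 6.34 and 5.87 against 6.32. Calls appeared for Il6st between continuous and transient cells without the third continuous CD8 array (-1.97), and for Socs2 between transient and unstimulated cells without the second unstimulated CD8 array (-1.98). The share of all probe sets called was 36.5% for transient against unstimulated, 19.1% for continuous against unstimulated and 17.6% for continuous against transient. On day 2 the differences between the cell types reached 2.07 (SE 1.20, Socs2) and -2.01 (SE 0.84, Il6st), and limma called none of the 20380 probe sets, with 121 at an unadjusted p below 0.05. Without the third unstimulated arrays, Il6ra (-1.71, SE 0.28) and Il6st (-2.54, SE 0.49) were called there, among 1.97% of all probe sets. Their other probe sets were not called, at -0.06 for Il6ra and at 0.23 and -0.44 for Il6st.

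Ordered over all 10 groups, Il6ra was highest in unstimulated CD4 cells of day 5 (11.75 ± 0.35, SD, n = 2), then in unstimulated CD8 cells of day 5 (10.94 ± 0.21, SD, n = 3), which did not overlap. Below them, transient CD4, transient CD8 and both unstimulated day 2 groups followed at 10.57 to 9.68, each overlapping the next, and continuous CD4 at 9.67. Stimulated CD4 cells of day 2 (8.00 ± 0.29), continuous CD8 cells (7.02 ± 0.79) and stimulated CD8 cells of day 2 (6.53 ± 0.09, SD, n = 3 each) were the lowest and overlapped in turn. Il6st had unstimulated CD4 cells (12.66 ± 0.10, SD, n = 2) and transient CD8 cells of day 5 (12.07 ± 0.23, SD, n = 3) on top, without overlap, and stimulated CD8 cells of day 2 (7.55 ± 0.11, SD, n = 3) at the foot. All day 5 means of Il6st lay above all its day 2 means, 10.21 or more against 9.60 or less. Since day and setting (host or culture) change together, they cannot be told apart in this order.

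Cish was highest in stimulated CD8 (12.64 ± 0.26) and stimulated CD4 cells (12.02 ± 0.71, SD, n = 3 each), which overlapped each other and lay above all other groups. The other 8 groups, from 9.18 to 8.01, overlapped in sequence. Socs2 had the same leaders, stimulated CD8 (8.99 ± 0.62) above stimulated CD4 cells (7.45 ± 0.58, SD, n = 3 each) without overlap. Socs1 had them too, at 8.14 ± 0.59 and 7.91 ± 1.09 (SD, n = 3 each), overlapping. Socs3 spread over the whole range in overlapping steps, with transient CD4 cells of day 5 at the top (11.78 ± 0.05, SD, n = 2) and continuous CD8 cells at the foot (7.45 ± 0.58, SD, n = 3).

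Of the 6 genes, 4 were measured by more than 1 probe set, and these did not always match in size. The second Il6ra probe set, 1422270_a_at, stayed between 5.59 and 7.54 and its group means correlated with those of the first at r = 0.75 over 10 groups. It was lower in continuous than in unstimulated cells by -0.55 (SE 0.12) in CD8 and -0.56 (SE 0.14) in CD4 cells, where the first gave -3.93 and -2.09. Its means in continuous and transient cells were 6.02 and 6.29 in CD8 and 6.26 and 6.48 in CD4 cells. The first differed there by -3.30 and -0.90. On day 2 its means were 5.95 in stimulated and 7.00 in unstimulated CD8 cells, and 6.19 and 6.66 in CD4 cells. Of the other Il6st probe sets, 1460295_s_at tracked the first (r = 0.95) at a smaller span of 1.78, against 5.11, while 1421239_at spanned only 0.46. The 3 Socs3 probe sets agreed in direction in CD8 cells, with -4.12 (SE 0.38), -3.51 (SE 0.41) and -1.86 (SE 0.43) between continuous and unstimulated cells, all called. In CD4 cells 1416576_at was called lower there (-2.01, SE 0.48), while the other 2 were not (-1.04, SE 0.43 and -0.83, SE 0.45). Between transient and unstimulated CD8 cells the call of Socs3 rested on the first probe set alone, as the other 2 gave -0.89 (SE 0.41) and -0.42 (SE 0.43).

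The second Socs2 probe set, 1418507_s_at, showed the day 2 change in both cell types. It was at 7.92, 7.70 and 8.74 in stimulated CD8 cells and 3.90, 4.62 and 3.21 in unstimulated CD8 cells (4.21, SE 0.60). In CD4 cells it was at 6.90, 7.84 and 6.16 after stimulation and 4.32, 4.98 and 3.05 without it (2.85, SE 0.60). Neither pair of groups overlapped, and both were called. The first Socs2 probe set, in contrast, had overlapping CD4 groups, so that whether Socs2 differed in CD4 cells depended on the probe set.

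**Figure D3:**
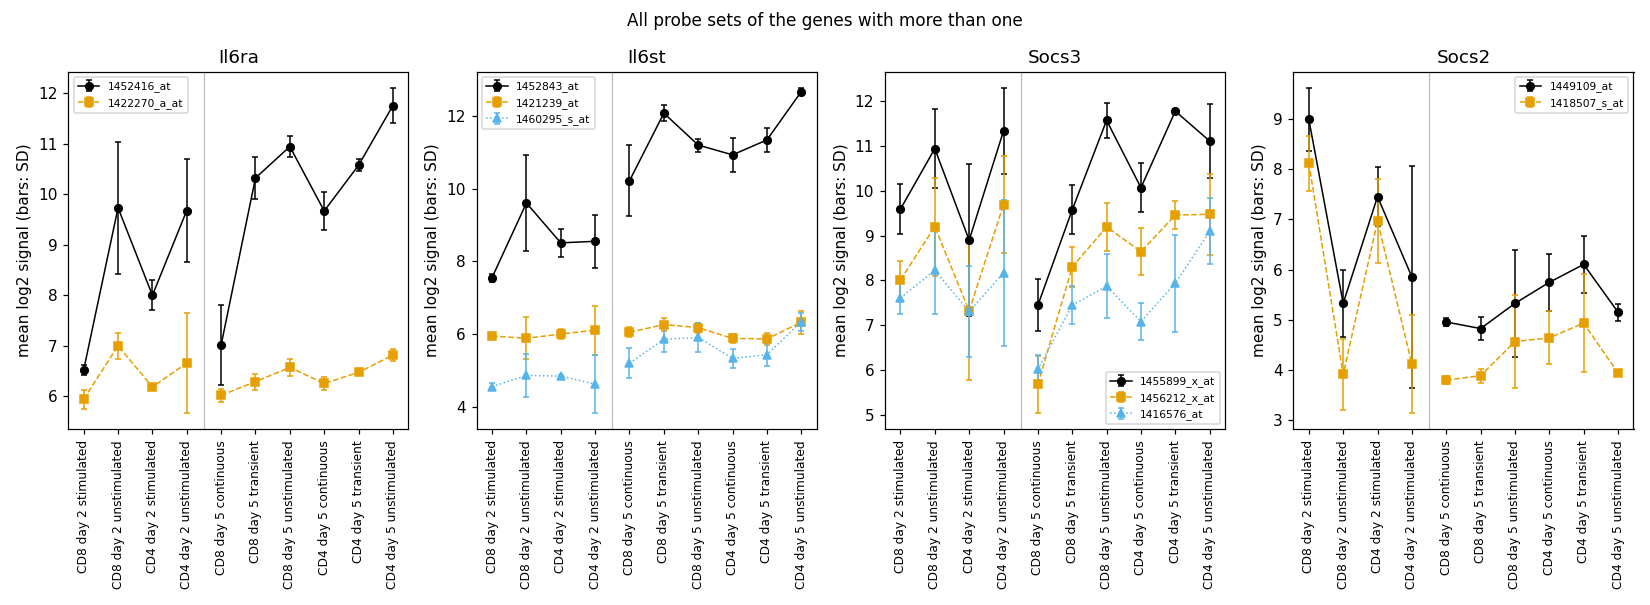
Group means (y axis, log2 signal, bars SD) of every probe set of the 4 genes that have more than 1, by group along the x axis. Black is the probe set with the highest mean. The other Il6st probe sets span 0.46 and 1.78, beside 5.11 for the first, while all 3 Socs3 probe sets are lowest in continuous CD8 cells and both Socs2 probe sets highest in stimulated CD8 cells.

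The genes around the receptor were tested as a list of 64, drawn up by role, of which 58 were measured. This list too was made with earlier results of these arrays known, so its adjusted p-values are no independent evidence. On day 2, 13 were called higher and 2 lower in stimulated CD8 cells (median difference 1.02), and 18 higher and 2 lower in stimulated CD4 cells (1.28). Without the third unstimulated arrays the counts were 21 higher and 9 lower in CD8 cells, and 28 higher and 11 lower in CD4 cells, beside 34.8% and 62.3% of all probe sets called. With those arrays the shares of all probe sets were 7.94% in CD8 (7.21% higher, 0.736% lower) and 10.9% in CD4 cells (10.2% higher, 0.658% lower). Nearly all calls of the whole table were thus rises too. Without those arrays, 45.2% of all calls in CD8 and 39.4% in CD4 cells were rises. Each pathway gene named below as risen or fallen on day 2 was also called in that direction without the third unstimulated arrays. Sizes are from the fit with all arrays unless stated, and without the third ones some were larger and some smaller. Of the 58, 3 passed an unadjusted p below 0.05 for the difference between the cell types on day 2, and limma called none. With the third unstimulated arrays left out, it called Il6 higher (2.76, SE 0.51, adjusted p = 0.0377) and Myc lower (-1.74, adjusted p = 0.0447) in CD8 relative to CD4 cells.

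Ligands of the gp130 family moved in opposite directions. Il6 itself rose by 3.85 in stimulated CD8 cells (SE 0.50, adjusted p = 0.000575), to 7.79 against 3.94 in unstimulated CD8 cells, and by 1.81 in CD4 cells (SE 0.50, adjusted p = 0.0337). Ebi3, the shared subunit of interleukins 27 and 35, rose by 3.69 in CD8 cells (SE 0.71, adjusted p = 0.00730) and 3.28 in CD4 cells (SE 0.71, adjusted p = 0.0107). Lif, leukemia inhibitory factor, rose by 2.71 in CD8 (SE 0.57, adjusted p = 0.0118) and by 3.74 in CD4 cells (SE 0.57, adjusted p = 0.00147). Clcf1, a ligand of the ciliary neurotrophic factor receptor, was the 1 of 6 measured ligands that fell in the fit with all arrays, by 2.51 in CD8 and by 2.26 in CD4 cells (SE 0.65 each, adjusted p = 0.0329 and 0.0407). With the third unstimulated arrays left out, Il11 (-1.08, adjusted p = 0.00127) and Ctf1 (-0.67, adjusted p = 0.00446) were called lower in CD4 cells as well. Among the 6 measured other receptor chains and sheddases, none was called in CD8 cells and only Adam17, which sheds the Il6ra protein from the cell surface, rose in CD4 cells (1.99, SE 0.54, adjusted p = 0.0323). That count held only with the third unstimulated arrays. Without them Osmr and Cntfr were called lower in CD8 (-0.88 and -0.98) and CD4 cells (-0.99 and -1.15), and in CD4 cells Lifr was called lower (-0.60) and Il27ra higher (0.80).

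Receptors of other cytokines changed over a wider range. Il2ra, a chain of the interleukin 2 receptor, rose by 5.29 in CD8 (SE 0.73, adjusted p = 0.000907) and by 5.15 in CD4 cells (SE 0.73, adjusted p = 0.000989). Il12rb1, a chain of the interleukin 12 receptor, rose by 3.44 in stimulated CD8 cells (SE 0.57, adjusted p = 0.00305) and by 4.88 in stimulated CD4 cells (SE 0.57, adjusted p = 0.000302). Il7r, the receptor chain for the interleukin 7 in the medium, fell by 3.18 in CD8 cells (SE 0.80, adjusted p = 0.0295) and 4.33 in CD4 cells (adjusted p = 0.00479). With Il2rb, 3 of 9 measured chains rose and 1 fell in each cell type. With the third unstimulated arrays left out, Ifngr1, a chain of the interferon gamma receptor, was called lower too (-1.46 in CD8 and -1.04 in CD4 cells), Il21r higher in CD8 (0.92), and Il4ra and Il12rb2 higher in CD4 cells (1.28 and 1.55).

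Downstream, Stat5a was the 1 of 6 measured STAT genes called with all arrays, higher by 3.57 in CD8 (SE 0.70, adjusted p = 0.00851) and by 3.12 in CD4 cells (SE 0.70, adjusted p = 0.0133). It was higher by 2.79 in CD8 and 2.49 in CD4 cells without the third unstimulated arrays. Stat3, which carries the interleukin 6 signal, differed by 2.09 in CD8 (SE 0.65, adjusted p = 0.0685) and 1.30 in CD4 cells (SE 0.65, adjusted p = 0.251), and was called in both without the third unstimulated arrays (1.14 in CD8 and 1.02 in CD4 cells), as was Stat4 in CD4 cells (1.21). Stat5b was not called (1.10 in CD8 and 0.65 in CD4 cells). Of 4 Janus kinase genes, Jak3 rose in CD4 cells (2.01, SE 0.55, adjusted p = 0.0339) and none was called in CD8 cells. Jak1 was at 8.80 in stimulated and 9.80 in unstimulated CD8 cells and differed by -0.26 in CD4 cells. Jak2 differed by 0.97 in CD8 and 1.56 in CD4 cells, and none of these was called. Jak1 was, however, called lower in CD8 cells when the third unstimulated arrays were left out (-1.90, SE 0.26, adjusted p = 0.00104). None of the 4 other SOCS genes, Socs4 to Socs7, was called on day 2, and 2 of the 4 passed an unadjusted p below 0.05 in each cell type. Socs5 and Socs6 were called higher without the third unstimulated arrays in CD8 (2.09 and 1.24) and CD4 cells (0.88 and 0.99), and Socs7 lower in CD4 cells (-0.93). Among 10 other brakes, Pias2 rose in both (2.21 in CD8, adjusted p = 0.0490, and 2.78 in CD4, adjusted p = 0.0136) and Ptpn11, which encodes the phosphatase SHP2, rose in CD4 cells (2.56, SE 0.42, adjusted p = 0.00242). For Pias2 the differences were 1.43 in CD8 and 2.36 in CD4 cells without the third unstimulated arrays. Ptpn6 and Pias3 were called higher without the third unstimulated arrays in CD8 (0.61 and 1.18) and CD4 cells (1.19 and 0.79), and Ptpn1 higher in CD4 cells (0.75). Lower there were Pias1 in CD8 (-0.45) and Sh2b3 in CD4 cells (-0.95).

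Known STAT3 or STAT5 targets rose in 5 of 13 cases in CD8 and 7 of 13 in CD4 cells, among them Junb (3.98 in CD8, adjusted p = 0.00410, and 3.87 in CD4, adjusted p = 0.00401), with none called lower. Of all calls in the whole table there, 90.7% in CD8 and 93.9% in CD4 cells were rises. Mcl1 was called lower without the third unstimulated arrays in both (-0.83 in CD8 and -0.98 in CD4 cells) and Bcl6 in CD8 cells (-1.18), while Pim2 (1.17) and Bcl2l1 (2.07) were then called higher in CD8 cells. Pim1 (0.79 in CD8 and 0.75 in CD4 cells) and Bcl3 (1.78 in CD8 and 2.04 in CD4 cells) were not called.

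On day 5, between continuous and transient cells, 5 of the 58 rose and 11 fell in CD8 cells, and 14 rose and 10 fell in CD4 cells (median differences -0.02 and 0.06, beside -0.04 for all probe sets in both). Of all probe sets, 26.5% were called in CD8 and 33.4% in CD4 cells, and the CD8 count is near its share. Clcf1 fell again, by 2.06 in CD8 (SE 0.18, adjusted p = 1.01e-05) and by 1.20 in CD4 cells (SE 0.21, adjusted p = 0.000481). Lif rose by 1.50 in CD8 (SE 0.38, adjusted p = 0.0103) and 2.09 in CD4 cells (SE 0.43, adjusted p = 0.00185). Il6 was not called on day 5 in these comparisons (-0.01 in CD8 and -0.83 in CD4 cells). Il27ra, the receptor chain that pairs with gp130 for interleukin 27, fell by 1.07 in CD8 cells (SE 0.16, adjusted p = 0.000242).

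Il7r fell in the continuous groups, by 3.66 in CD8 (SE 0.69, adjusted p = 0.00142) and by 2.71 in CD4 cells (SE 0.77, adjusted p = 0.0146). Il6ra was lower there too, but was called only in CD8 cells. Il2ra rose by 2.20 in CD8 cells (SE 0.39, adjusted p = 0.000971) and was -1.03 in CD4 cells (SE 0.44, adjusted p = 0.0863). Jak1, a kinase bound to gp130, fell by 0.82 in CD8 (adjusted p = 0.00351) and by 0.96 in CD4 cells (adjusted p = 0.00174). When its probe sets were averaged, these were -0.81 and -0.08, and the CD4 one was no longer called. Jak3 rose by 2.26 in CD4 cells (SE 0.20, adjusted p = 3.06e-06). Stat3 was not called in either cell type (0.26 in CD8 and 0.34 in CD4 cells), nor was Stat5a (0.14 in CD8 and -0.73 in CD4 cells). Jak2 fell by 0.71 in CD4 cells (SE 0.21, adjusted p = 0.0192) and was at -0.29 in CD8 cells. Stat5b rose by 0.72 in CD4 cells (SE 0.17, adjusted p = 0.00481) and fell by 0.55 in CD8 cells (SE 0.15, adjusted p = 0.0166), where another of its probe sets was called higher.

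Among the other SOCS genes, Socs4 and Socs6 were called higher in continuous than in transient cells of both types, at 0.79 and 0.59 in CD8 and 0.75 and 0.70 in CD4 cells. A further Socs4 probe set was called the other way in CD4 cells, and the average of both was -0.11. In CD8 cells, Socs6 (SE 0.14, adjusted p = 0.00788) and Socs4 (SE 0.18, adjusted p = 0.00470) thus rose while Socs3 was lower by 2.13. Known targets of STAT3 or STAT5 included 0 called higher and 2 lower of 13 in CD8 cells, with Pim2 down by 1.07 (SE 0.11, adjusted p = 2.73e-05). In CD4 cells 4 of 13 were higher and 1 lower. Il21 rose by 6.26 in CD4 cells (SE 0.30, adjusted p = 5.34e-08), and Bcl3, a nuclear partner of NF-kappaB, by 1.89 (SE 0.29, adjusted p = 0.000184), against 0.47 with no call in CD8 cells. Pim1 was not called (0.62 in CD8 and 0.83 in CD4 cells). Beside the CD4 values stand 7 of 7 B cell markers called lower in continuous than in transient cells, whose part was not tested.

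**Figure D4:**
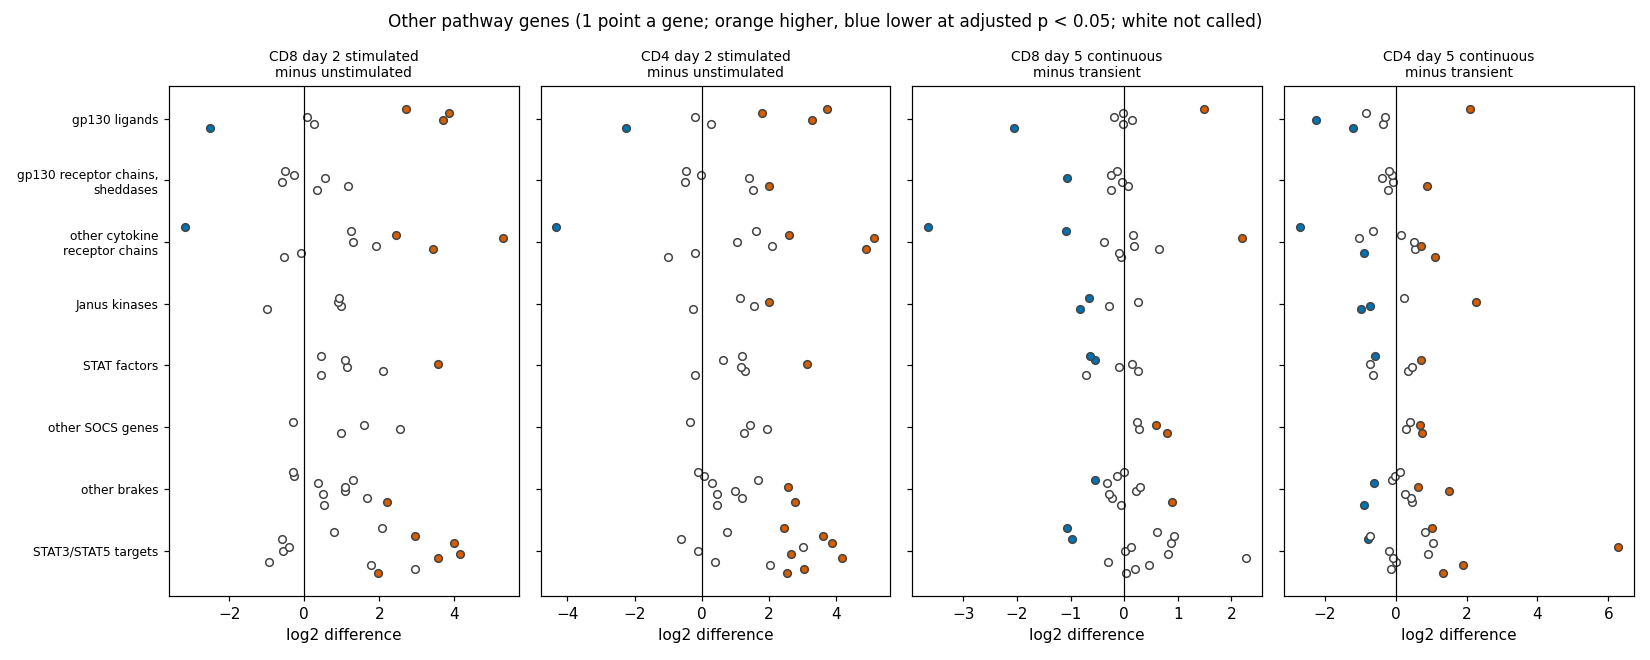
Log2 differences (x axis) of the other pathway genes by role (y axis), 1 point a gene, in 4 comparisons. Orange points are called higher, blue lower and white not called. On day 2 the called points lie mostly to the right, with Il7r and Clcf1 as the 2 blue ones in each cell type, and on day 5 they lie on both sides. Of all day 2 calls in the whole table, 90.7% in CD8 and 93.9% in CD4 cells were also rises.

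Against unstimulated cells, continuous cells had 16 of 58 genes higher and 13 lower in CD8 (median 0.11), and 12 higher and 11 lower in CD4 cells (0.08). The shares of all probe sets called were 46.0% in CD8 and 20.1% in CD4 cells, and the CD8 count is near its share. Clcf1 fell by 2.53 (SE 0.18, adjusted p = 2.56e-07) in CD8 and fell by 2.30 (SE 0.21, adjusted p = 1.04e-05) in CD4 cells. Il27ra fell by 1.26 in CD8 (SE 0.16, adjusted p = 2.00e-05) and fell by 0.73 in CD4 cells (SE 0.17, adjusted p = 0.00863). Jak3, which serves the interleukin 2 and 7 receptors, rose by 1.77 in CD8 (SE 0.18, adjusted p = 3.96e-06) and by 1.08 in CD4 cells (SE 0.20, adjusted p = 0.00197). Stat4 rose by 0.59 in CD8 (adjusted p = 0.00648) and by 1.25 in CD4 cells (adjusted p = 0.000228). Stat3 was at 10.44 in continuous and 10.22 in unstimulated CD8 cells (0.21, SE 0.16, adjusted p = 0.286), and the CD4 difference was 0.16. Il7r fell by 3.55 in CD8 (adjusted p = 0.000832) and by 4.12 in CD4 cells (adjusted p = 0.00197), and Il2ra rose by 2.58 in CD8 (adjusted p = 0.000115) and by 1.87 in CD4 cells (adjusted p = 0.00796). Jak1 fell by 0.99 in CD8 cells (adjusted p = 0.000423), where another of its probe sets was called higher, and by 0.72 in CD4 cells (adjusted p = 0.0185). Bcl3 rose by 0.82 in CD8 (adjusted p = 0.0182) and by 1.04 in CD4 cells (adjusted p = 0.0197).

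Stat5a fell by 1.39 in continuous against unstimulated CD4 cells (adjusted p = 0.0221) and was at -0.30 in CD8 cells. No call was made there for Jak2 (-0.42 in CD8 and 0.21 in CD4 cells), Stat5b (0.21 and -0.36 in the same order) or Pim1 (-0.72 and 1.06). The beta-actin difference was 0.312 to 0.557 in continuous and 1.92 to 2.44 in unstimulated CD8 cells, while in CD4 cells it was 0.401 to 0.618 and 0.669 to 0.984. Its part in these values was not tested.

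Transient cells differed from unstimulated ones in 13 higher and 4 lower genes of 58 in CD8, and in 5 higher and 8 lower in CD4 cells (median 0.06 in each), beside 30.3% and 22.8% of all probe sets called, and both counts are near these shares. Pim2 was among the clearest, higher by 1.91 in CD8 cells (SE 0.11, adjusted p = 1.15e-07) and lower in CD4 cells (-1.44, SE 0.14, adjusted p = 1.53e-05), and the difference between the cell types was 3.36 (SE 0.17, adjusted p = 2.23e-08). Jak3 rose by 1.51 in CD8 (SE 0.18, adjusted p = 3.57e-05) and fell by 1.18 in CD4 cells (SE 0.22, adjusted p = 0.00186). Stat5b rose by 0.76 in CD8 (SE 0.15, adjusted p = 0.00208) and fell by 1.09 in CD4 cells (SE 0.19, adjusted p = 0.00102). Pias3, which restrains STAT3, rose by 1.27 in CD8 cells (SE 0.19, adjusted p = 0.000179). Pim1 fell by 1.33 in CD8 cells (SE 0.34, adjusted p = 0.00864) and was at 0.24 in CD4 cells. Il2ra rose by 2.90 in CD4 cells (SE 0.48, adjusted p = 0.000727) and was at 0.38 in CD8 cells, and Jak2 rose by 0.92 in CD4 cells (SE 0.23, adjusted p = 0.0115) and was at -0.13 in CD8 cells. No call was made for Il7r (0.11 in CD8 and -1.41 in CD4 cells), Jak1 (-0.17 and 0.24 in the same order), Stat3 (-0.05 and -0.18), Stat5a (-0.44 and -0.66) or Bcl3 (0.35 and -0.85). Jak1 changed sign when its probe sets were averaged, to 0.75 (SE 0.18) in CD8 and -0.83 (SE 0.22) in CD4 cells. The pan T cell markers moved alongside, with 5 of 7 called higher in CD8 and 4 of 7 lower in CD4 cells, and so did the B cell markers in CD4 cells. The beta-actin 3′ minus 5′ difference was 0.656 to 1.02 in transient and 1.92 to 2.44 in unstimulated CD8 cells. In CD4 cells it was 2.42 to 2.73 and 0.669 to 0.984 in the same order. What part these had in the values was not tested.

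Finally, the genes most like each of the 6 were taken by the Pearson correlation of the 10 group means, among 7569 genes whose means span at least 1 log2 unit. These points share their arrays, and the correlations are given as a description. Il6ra was most like Eps8l1 (r = 0.94), Scml4 (0.93) and Cyp2s1 (0.93), and Il6st most like Bcl11b (0.98), a factor that keeps the T cell fate, 4833420G17Rik (0.98) and Kmt5b (0.98). Socs3 was closest to Fam8a1, Cmtm6 and Epc1 (0.93 each). Socs1 was closest to Fosl2 and Traf4 (0.99 each) and Zfp428 (0.98). Cish was closest to C1qtnf12 (0.99), Cd70 (0.98), the ligand of CD27, and Pgpep1 (0.98), and Socs2 to Gm16793 (0.96), Il6 (0.96) and Scin (0.95).

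Those of Il6ra, Il6st and Socs3 stayed high over the 6 day 5 groups alone, at 0.99, 0.90 and 0.93 for the Il6ra genes, 0.97, 0.97 and 0.88 for those of Il6st and 0.92, 0.95 and 0.93 for those of Socs3. For Cish they were 0.67, 0.33 and 0.49 there, and for Socs2 0.31, 0.72 and -0.04, lower than over all 10 groups. Among the 6 genes, Cish and Socs2 were the most alike over 10 groups (r = 0.96), and Il6ra and Socs3 over the 6 day 5 groups (0.89). Il6ra and Il6st had r = 0.77 over 10 groups and 0.83 over the day 5 groups.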

How the data were processed

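RNA of sorted T cells was measured on 28 Affymetrix 430A2 arrays. The deposited values are log2 signals, made by the authors with RMA per the submitters' processing notes. Arrays have no read depth, and the number of arrays limits the precision. The table held 22690 probe sets. Left out were 64 controls, 691 probe sets that name more than 1 gene and 1555 that name no gene, and 20380 with 1 symbol remained (20351 matched in RefSeq), for 12393 genes, 4956 of them with several probe sets. No 2 arrays were identical. Groups were taken from the labels.

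Limma (3.58.1, R 4.3.3) was fitted to group means, separately for day 2 (12 arrays) and day 5 (16 arrays), with no filter. P-values are two-sided and adjusted by Benjamini-Hochberg over the 20380 probe sets. They set a difference of group means against the spread between arrays within the groups. Python 3.11.15 and pandas 2.3.3 were used for sequences and figures. On simulated data, 58% and 52% of log2 changes of 3 were called on day 2 (CD8 and CD4) and 97% to 100% on day 5, and of changes of 1, 0% and 1% on day 2 and 67% to 81% on day 5.

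The 6 genes, the pathway list and the marker lists were chosen with earlier results of these data known. The text names all 6 genes in every comparison, up to 2 called pathway genes per role with the largest differences, Jak1, Jak2, Stat3, Stat5a, Stat5b, Il2ra, Il7r, Pim1 and Bcl3 with or without a call, and the 3 genes most like each of the 6. Pathway genes that gained a call on day 2 without the third unstimulated arrays were added after their values were seen. Replicate numbers are shared between groups. Among comparisons with 3 pairs, same-numbered arrays deviated together in every pair (r above 0.1) only for transient against unstimulated CD8 cells (r = 0.47, 0.30 and 0.16), a hint from the data, since no label says what a number marks. Alternatives were the choice or mean of probe sets, a filter on low values, the moderation, the arrays in the fit, 2 further scalings, array weights, a replicate block, a stricter threshold and each array left out.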

Additional observations from a re-analysis of the deposited data

Results flagged for a closer look

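In each of the following, limma called the CD8 minus CD4 difference of a day 5 contrast. Values are log2 differences between the contrast in CD8 and in CD4 cells, and the CD4 transient group carried raised B cell markers whose part was not tested. Against unstimulated cells, the beta-actin 3′ minus 5′ difference was lower in transient CD8 cells and higher in transient CD4 cells. Its part was not tested either.

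For transient minus unstimulated cells, the 6 described genes gave 2 such results, Il6st at 2.21 (SE 0.58) and Socs3 at -2.66 (SE 0.60). The Socs3 value was -0.93, with no call, when its probe sets were averaged. Among the pathway genes, Pim2 had 3.36 (SE 0.17) and Stat5b 1.84 (SE 0.24). Il2ra had -2.52 (SE 0.62) and Jak2 -1.05 (SE 0.30). Bcl3 had 1.20 (SE 0.41) and Pim1 -1.57 (SE 0.54).

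For continuous minus unstimulated cells, Il6ra had -1.84 (SE 0.49) and Socs3 -3.08 (SE 0.57). Pim1 had -1.78 (SE 0.51) and Il21 -6.45 (SE 0.41).

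For continuous minus transient cells, Il6ra had -2.40 (SE 0.49). Il2ra had 3.23 (SE 0.59), Stat5b -1.27 (SE 0.23), Bcl3 -1.42 (SE 0.39) and Il21 -6.13 (SE 0.41). For Il6ra, this value and the one against unstimulated cells are from its brightest probe set. On the second one, continuous, transient and unstimulated cells averaged 6.02, 6.29 and 6.57 in CD8 and 6.26, 6.48 and 6.82 in CD4 cells.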

How the results depend on the processing

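Over the alternatives, 1243 differences of the 6 genes stayed on their side of the threshold, 42 gained a call and 59 lost one. No difference with a call changed sign. The 1243 include differences without a call that changed sign, such as Cish between transient and unstimulated CD8 cells, in 5 of 17 settings. Of the pathway gene differences, 3075 stayed on their side, 60 gained a call, 262 lost one and 7 were counted as sign changes. Of the counts, 362 stayed within 1.5 times and 86 did not, and the cause was not tested except where fewer arrays were used. Counts below are genes called, of the 6 described genes and of the 58 pathway genes, each with the reported count in brackets.

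In 1 fit of all 28 arrays, day 2 gave 5 [3] and 30 [15] in CD8 and 3 [1] and 35 [20] in CD4 cells. On day 5, transient against unstimulated gave 0 [1] and 3 [17] in CD8 and 0 [2] and 0 [13] in CD4 cells, continuous against unstimulated 10 [29] pathway genes in CD8 and 0 [2] and 4 [23] in CD4 cells, and continuous against transient 4 [16] pathway genes in CD8 and 0 [2] and 5 [24] in CD4 cells. The CD8 minus CD4 differences gave 0 [2] and 2 [22], 0 [2] and 1 [8], and 0 [1] and 1 [12] in the same order.

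Without the third unstimulated arrays, day 2 gave 30 [15] pathway genes in CD8, 3 [1] and 39 [20] in CD4, and 2 [0] and 2 [0] for the difference. Quantile normalization gave 5 [3] and 24 [15] in CD8 and 4 [1] of the 6 in CD4 cells on day 2, and 1 [2] for CD4 transient against unstimulated. Median centring gave 29 [15] pathway genes in CD8 and 3 [1] and 34 [20] in CD4 cells on day 2. Array weights gave 31 [15] pathway genes in CD8 and 2 [1] of the 6 in CD4 cells on day 2, 5 [3] and 27 [16] for CD8 continuous against transient, 15 [8] pathway genes for the difference of continuous against unstimulated and 2 [1] of the 6 for that of continuous against transient. With only the groups compared, day 2 gave 8 [15] pathway genes in CD8 and 2 [1] of the 6 in CD4 cells, and CD8 transient against unstimulated 2 [1]. At an adjusted p below 0.01, day 2 gave 1 [3] and 8 [15] in CD8 and 0 [1] and 9 [20] in CD4, CD4 transient against unstimulated 0 [2] and 8 [13], CD4 continuous against unstimulated 10 [23] pathway genes, CD4 continuous against transient 1 [2] of the 6, and the difference of continuous against unstimulated 1 [2] and 5 [8].

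The replicate block gave 2 [1] of the 6 in CD4 cells on day 2, 0 [2] for CD4 transient against unstimulated, 1 [2] for CD4 continuous against transient and 14 [8] pathway genes for the difference of continuous against unstimulated. With the crossed pairing, added after seeing the data, CD4 transient against unstimulated gave 1 of the 6 and 4462 probe sets in the whole table, beside 4311 with the replicate block and 4643 without. Trend and robust moderation gave 2 [1] of the 6 in CD4 cells on day 2 and 0 [2] for CD4 transient against unstimulated, leaving out the lowest 30% of probe sets 2 [1] in CD4 cells on day 2, and 1 probe set per gene 1 [2] for CD4 transient against unstimulated.

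With the mean of a gene's probe sets, CD4 cells on day 2 gave 2 [1] of the 6, the difference of transient against unstimulated 1 [2], and that of continuous against unstimulated 3 [8] pathway genes. The 7 sign changes counted above were all there. Adam10 read -0.32 in CD4 transient against unstimulated and 0.61 in CD8 continuous against unstimulated, and Socs4 -0.11 in CD4 continuous against transient. Jak1 read -0.83 in CD4 and 0.75 in CD8 cells for transient against unstimulated, and its CD8 minus CD4 difference 1.58 there and 0.85 for continuous against unstimulated.

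Leaving out 1 array at a time gave, for the 6 and the pathway genes, 2 to 4 [3] and 8 to 19 [15] in CD8 and 0 to 3 [1] and 10 to 22 [20] in CD4 cells on day 2. Transient against unstimulated gave 1 to 2 [1] and 14 to 17 [17] in CD8 and 0 [2] and 7 to 12 [13] in CD4 cells. Continuous against unstimulated gave 2 to 4 [3] and 27 to 34 [29] in CD8 and 1 to 2 [2] and 9 to 18 [23] in CD4 cells, and continuous against transient 3 to 4 [3] and 13 to 18 [16] in CD8 and 1 to 2 [2] and 18 to 25 [24] in CD4 cells. The differences gave 0 and 0 on day 2, 2 to 3 [2] and 17 to 22 [22], 1 to 2 [2] and 6 to 12 [8], and 1 to 2 [1] and 8 to 14 [12]. A group left with 1 array was assumed to vary like the others.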
